A study of Rattus norvegicus with 6 samples.

Results

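*Umod*, *Egf*, *Kcnj1*, *Bsnd*, *Casr* and *Ptger3*, 6 genes known from the thick ascending limb of the loop of Henle, were read from RNA sequencing of kidney tissue in 6 male Sprague Dawley rats. They were chosen by gene symbol, and all 6 were among the 17051 genes listed and the 11553 genes tested. The AL group (rats 61, 71 and 88) ate standard chow powder at will. The HD group (rats 64, 67 and 69) received, mixed into the same kind of chow, an ammonia-generating amino acid mixture modelled on the composition of hemoglobin, with a daily dose of 3 g per kg of body weight. Diets were assigned at random and lasted 7 days in both groups, after which the rats were operated on under isoflurane. The ages of the rats and the part of the kidney that was sequenced were not given in the sources used here.

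The thick ascending limb carries sodium chloride out of the tubule without water, which dilutes the urine and builds the salt gradient of the medulla. Sodium, potassium and chloride enter from the lumen through the cotransporter NKCC2, the product of *Slc12a1*. Potassium returns to the lumen through ROMK, and chloride leaves on the blood side through chloride channels. The same segment also absorbs ammonium through the cotransporter, which loads the medulla with ammonia for excretion in the collecting duct. Uromodulin and pre-pro-EGF are among its abundant protein products. Several of the 6 genes are also active elsewhere in the kidney, *Egf* in the distal convoluted tubule, *Kcnj1* and *Bsnd* in later segments and *Casr* in other tubule cells, so that their RNA in kidney tissue is not from a single cell type.

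Estimated read counts summed to between 12499945 and 30466461 per rat, with the largest total in HD rat 69 and the smallest in HD rat 64. The 6 genes together took between 0.357% (rat 64) and 0.573% (rat 69) of a rat's counts. RNA of all 6 was present in every rat, from 113 counts for *Casr* to 127014 counts for *Umod*. Counting error alone was 0.559% of the lowest *Umod* count and 9.40% of the lowest *Casr* count, and for each gene it was below the spread between rats given below.

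Each gene was represented by 1 transcript in genome build rn5. *Umod* (NM_017082) lies on the minus strand at chr1:196127940-196141280 with 10 exons, and *Egf* (NM_012842) on the plus strand at chr2:74746757-74870998 with 23 exons. *Kcnj1* (NM_017023) lies on the plus strand at chr8:33560608-33564733 with 3 exons, and *Bsnd* (NM_138979) on the minus strand at chr5:129918748-129927546 with 4 exons. *Casr* (NM_016996) lies on the plus strand at chr11:70279170-70348597 with 7 exons, and *Ptger3* (NM_012704) on the minus strand at chr2:282680844-282760556 with 3 exons. The quantified transcripts were between 1253 bases (*Ptger3*) and 4609 bases (*Egf*) long.

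Levels of different genes were compared in TPM, which divides counts by transcript length. The order was the same in all 6 rats, with *Umod* highest, then *Egf*, *Kcnj1*, *Bsnd*, *Ptger3* and *Casr*. *Umod* had a median of 2429 TPM over the 6 rats (lowest 1827, highest 2973), a mean level above that of 99.7% of tested genes. *Egf* had a median of 325 TPM (221 to 386) and *Kcnj1* 174 TPM (133 to 226), and these neighbours overlapped in range between rats. *Bsnd* had a median of 49.9 TPM (26.8 to 76.6) and *Ptger3* 14.3 TPM (12.8 to 36.4), which also overlapped. *Casr* was the lowest with a median of 3.42 TPM (3.04 to 5.88), above 19.9% of tested genes. Thus the secreted products stood at the top of the order and the receptors at its foot, with the channel genes between them.

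The comparison of the diets asked whether RNA of the segment's characteristic genes differed after 7 days of amino acid loading. No difference was detected for any of the 6. edgeR's quasi-likelihood test with Benjamini-Hochberg adjustment over all tested genes called 0 of the 6 at an adjusted *P* value of 0.05, against 0.0% of all tested genes. At an unadjusted *P* value below 0.05 it also marked 0 of the 6, against 10.6% of all tested genes. DESeq2 called 0 of the 6, against 1.58% of all tested genes. Library-size-normalized counts (CPM) of AL and HD rats overlapped for every one of the 6 genes, while they did not overlap for 14.3% of all tested genes. The estimated log2 fold change (HD over AL) was below 0 for 5 genes and above 0 for *Casr*, between -0.27 and 0.28, with a median of -0.13 beside 0.01 for all tested genes. In tissue of mixed cells, fewer cells of a segment and less RNA per cell cannot be told apart.

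**Figure D1:**
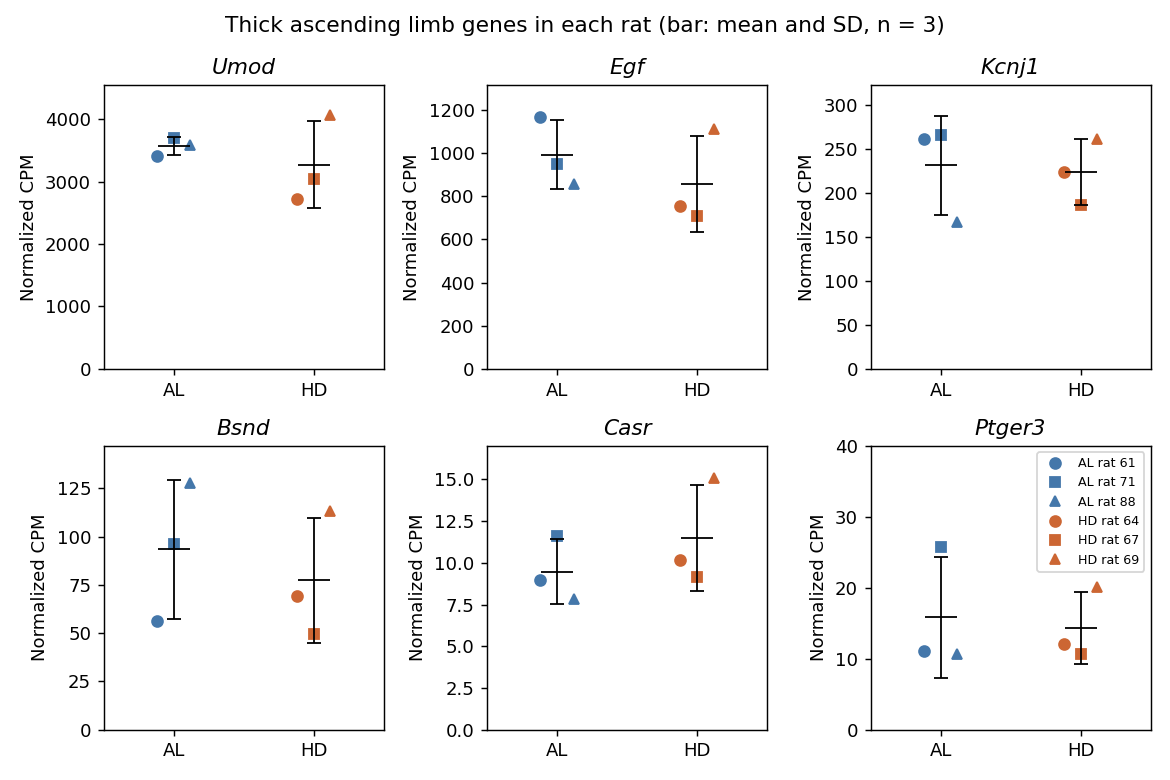
Normalized CPM (vertical axes, linear from 0) of the 6 genes in each rat, with AL rats in blue and HD rats in orange, and the mean and SD of 3 rats as a bar. The groups overlap in every panel, and HD rat 69 (orange triangle) is the highest HD rat for all 6 genes.

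Of the secreted products, *Umod* encodes uromodulin, the most abundant protein of normal urine, which is released from the apical membrane by proteolysis. Its level was 3411, 3696 and 3586 CPM in AL rats 61, 71 and 88, and 2721, 3038 and 4061 CPM in HD rats 64, 67 and 69. Rats 64 and 67 lay below all AL rats and rat 69 above them, so the HD values enclosed the AL values. The means were 3564 ± 144 CPM in AL and 3273 ± 700 CPM in HD (SD, *n* = 3 each), and the SD of the HD rats was larger than the difference of the means. The log2 fold change was -0.12 (SE 0.18), with a 95% interval from -0.55 to 0.30 and an adjusted *P* of 0.871 in edgeR's quasi-likelihood test. On the fold scale this interval ran from 0.685 to 1.23.

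*Egf* encodes the membrane-bound precursor of epidermal growth factor. AL rats 61, 71 and 88 had 1170, 952 and 856 CPM, and HD rats 64, 67 and 69 had 753, 708 and 1114 CPM. Rats 64 and 67 again lay below all AL rats, whereas rat 69 lay between AL rats 71 and 61. The means were 993 ± 161 CPM in AL and 858 ± 222 CPM in HD (SD, *n* = 3 each). Its fold change was -0.21 on the log2 scale (SE 0.21, 95% interval -0.70 to 0.28, adjusted *P* = 0.791, edgeR's quasi-likelihood test). Without rat 69 the log2 fold change of *Egf* was -0.43, with an unadjusted *P* of 0.0407 and an adjusted *P* of 0.298 in the same edgeR test.

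Of the channel genes, *Kcnj1* encodes ROMK, the apical channel that returns potassium to the lumen. Its level was 262, 266 and 167 CPM in AL rats 61, 71 and 88, and 224, 186 and 262 CPM in HD rats 64, 67 and 69. All 3 HD values fell within the range of the AL values, and AL rat 88 was the lowest of the 6. The means were 232 ± 56.0 and 224 ± 37.8 CPM (SD, *n* = 3 each). On the log2 scale the fold change was -0.05 (SE 0.21, 95% interval -0.54 to 0.44, adjusted *P* = 0.967, edgeR). The estimate lay above 0 when rat 61, 71 or 67 was left out, at 0.05, 0.06 and 0.07.

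*Bsnd* encodes barttin, an accessory subunit of basolateral chloride channels. Its level was 56.2, 96.3 and 128 CPM in AL rats 61, 71 and 88, and 69.4, 49.7 and 113 CPM in HD rats 64, 67 and 69. The groups overlapped, with AL rat 61 and HD rat 67 low and AL rat 88 and HD rat 69 high, and the ratio of the highest to the lowest rat, 2.58, was the largest among the 6 genes. The means were 93.4 ± 36.0 and 77.5 ± 32.6 CPM (SD, *n* = 3 each). The log2 fold change was -0.27 (SE 0.37), and its 95% interval from -1.13 to 0.59 covers folds from 0.458 to 1.5 (adjusted *P* = 0.859, edgeR). It was -0.64 without HD rat 69, -0.53 without AL rat 61, -0.03 without HD rat 67 and 0.03 without AL rat 88.

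Of the receptors, *Casr* encodes the calcium-sensing receptor, which in this segment lowers salt and calcium absorption when blood calcium is high. Its level was 8.97, 11.6 and 7.81 CPM in AL rats 61, 71 and 88, and 10.2, 9.14 and 15.1 CPM in HD rats 64, 67 and 69. Rat 69 was above all AL rats, and rats 64 and 67 lay within the AL range. The means were 9.47 ± 1.96 and 11.5 ± 3.19 CPM (SD, *n* = 3 each). HD over AL, this was a log2 fold change of 0.28 (SE 0.26, 95% interval -0.32 to 0.88, adjusted *P* = 0.766, edgeR), and it was 0.03 without rat 69.

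*Ptger3* encodes a prostaglandin receptor that couples to inhibition of adenylate cyclase and opposes vasopressin in this segment. Its level was 11.1, 25.7 and 10.7 CPM in AL rats 61, 71 and 88, and 12.1, 10.7 and 20.1 CPM in HD rats 64, 67 and 69. A single rat in each group, 71 and 69, stood above the other 4, which ranged from 10.7 to 12.1 CPM. The means were 15.8 ± 8.57 and 14.3 ± 5.09 CPM (SD, *n* = 3 each). This gave a log2 fold change of -0.14 (SE 0.40, 95% interval -1.08 to 0.79, adjusted *P* = 0.945, edgeR). It was 0.40 without rat 71, 0.03 without rat 67 and -0.47 without rat 69, so its direction rested on single rats.

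**Figure D2:**
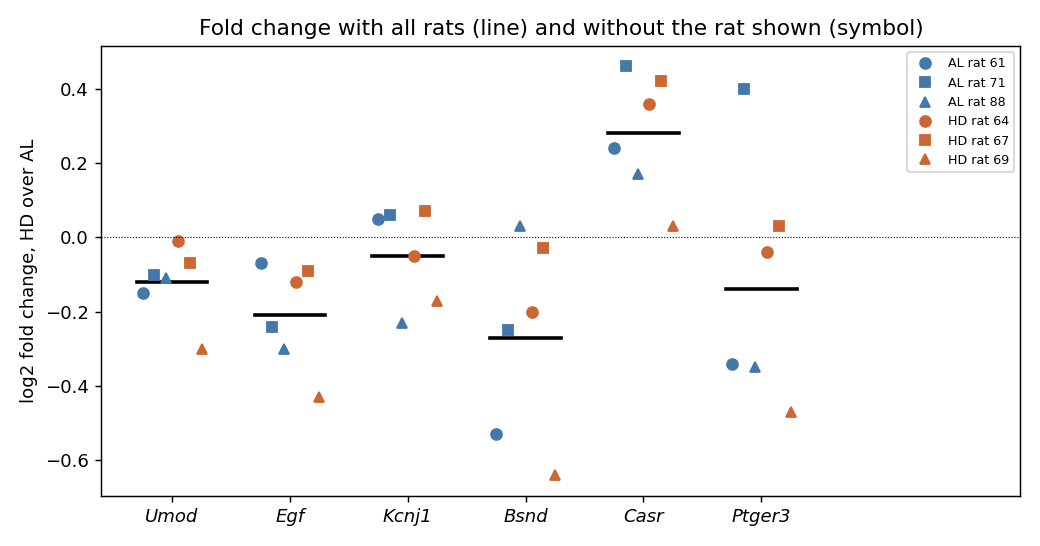
log2 fold change (HD over AL, vertical axis) of each of the 6 genes with all rats (black line) and with the rat of the symbol left out (blue for AL, orange for HD). Leaving out HD rat 69 gives the lowest value for *Umod*, *Egf*, *Bsnd*, *Casr* and *Ptger3*, and the sign changes under at least 1 omission for *Kcnj1*, *Bsnd* and *Ptger3*.

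The exact permutation tests on log2 CPM, a gene at a time, gave two-sided *P* values of 0.5 for *Umod*, 0.4 for *Egf*, 0.8 for *Kcnj1*, 0.7 for *Bsnd*, 0.4 for *Casr* and 0.9 for *Ptger3*. With 3 rats against 3, the smallest value such a test allows is 0.1. The intervals bound what was measured. For *Umod*, *Egf* and *Kcnj1*, folds below 0.614 or above 1.36 lay outside the unadjusted 95% intervals. For *Bsnd* and *Ptger3* the intervals still held folds from 0.474 to 1.5, and for *Casr* folds from 0.800 to 1.84, so folds of that size lay within what these data allow.

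In the HD group the rats took similar places across the 6 genes. HD rat 69 was the highest HD rat for 6 of the 6 genes, HD rat 67 was the lowest for 5 and HD rat 64 for 1 (*Umod*). Rat 69 also had the largest library, and whether its depth bears on these levels was not tested. In the AL group rat 71 was highest for 4 genes, and rat 88 lowest for 4. Summed over the 6 genes, the level was 4920, 5047 and 4756 CPM in AL rats 61, 71 and 88, and 3789, 4002 and 5585 CPM in HD rats 64, 67 and 69. Most of this sum was *Umod*, and its HD values enclosed those of the AL rats. The coefficient of variation of *Umod* was 4.03% in AL and 21.4% in HD, that of *Egf* 16.2% and 25.9%, and that of *Casr* 20.7% and 27.8%. For *Kcnj1* (24.2% and 16.9%) and *Ptger3* (54.1% and 35.6%) the AL rats varied more, and for *Bsnd* both groups varied widely (38.5% and 42.0%).

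As a measure of likeness, each gene's log2 level was centred on its mean over the 6 rats, and the root mean square distance between genes was taken. *Umod* and *Egf* were closest, at 0.183, followed by *Egf* and *Kcnj1* at 0.204, whereas *Kcnj1* and *Bsnd* were farthest apart at 0.581. Among the tested genes other than the 6, those nearest to *Umod* were *Ppp2r5a* (0.0398) and *LOC688318* (0.0399), and to *Egf* they were *Klhl23* (0.0671) and *Krt18* (0.0800). *Tmem177* (0.0704) and *Elf3* (0.0708) were nearest to *Kcnj1*, and *Fut4* (0.0793) and *Jam3* (0.111) to *Bsnd*. *Mcm5* (0.0819) and *Rnf208* (0.0838) were nearest to *Casr*, and *Sdc1* (0.0781) and *Itgb7* (0.0817) to *Ptger3*. The 6 genes were left out of this search, and the smallest distance between any of them was the 0.183 given above. *Umod*, which varied least, had 83 genes within a distance of 0.10 and *Bsnd*, which varied most, had 1.

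Ratios between genes within a rat do not depend on library size, and were examined after the single-gene results had been seen. Among the 15 pairs of the 6 genes, the log2 ratios of AL and HD rats did not overlap in 1, *Egf* over *Casr*, while they did not overlap for 15.7% of all pairs of tested genes. The log2 ratio of *Egf* to *Casr* was 6.95, 6.29 and 6.69 in AL rats 61, 71 and 88, and 6.14, 6.20 and 6.16 in HD rats 64, 67 and 69. The HD rats were lower and closer together, with means of 6.64 ± 0.33 and 6.17 ± 0.03 (SD, *n* = 3 each). The difference was -0.48, with an exact permutation *P* of 0.1, the smallest possible, and 0.750 after adjustment over the 15 pairs. The other 14 pairs overlapped, including *Umod* to *Egf*, whose mean log2 ratio was 1.86 ± 0.28 in AL and 1.94 ± 0.14 in HD.

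*Slc12a1*, the cotransporter gene that defines the segment together with *Umod*, was lower in every HD rat than in any AL rat, unlike the 6 genes. Its level was 2518, 1745 and 1704 CPM in AL rats 61, 71 and 88, and 676, 1043 and 1563 CPM in HD rats 64, 67 and 69. The groups did not overlap, and rat 64 was the lowest of all. The means were 1989 ± 459 and 1094 ± 446 CPM (SD, *n* = 3 each). The log2 fold change was -0.86 (SE 0.31, 95% interval -1.59 to -0.13), with an unadjusted *P* of 0.0263 and an adjusted *P* of 0.409 in edgeR's quasi-likelihood test and 0.110 in DESeq2, so that it did not pass the threshold. The log2 fold change lay between -1.21 and -0.61 when single rats were left out, and the unadjusted *P* was 0.0629 without HD rat 64, 0.0716 without HD rat 67 and 0.0870 without AL rat 61.

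Set against *Slc12a1* in the same rat, *Umod* was 1.35, 2.12 and 2.10 times as high in CPM in AL rats 61, 71 and 88, and 4.02, 2.91 and 2.60 times as high in HD rats 64, 67 and 69. The groups did not overlap, and AL rat 61 and HD rat 64 were the extremes. The log2 ratio of *Slc12a1* to *Umod* averaged -0.86 ± 0.37 in AL and -1.64 ± 0.33 in HD (SD, *n* = 3 each), a difference of -0.78. Of all other tested genes, 10.4% had a ratio to *Umod* that did not overlap between the groups. The corresponding difference was -0.69 for *Egf*, -0.89 for *Kcnj1* and -1.17 for *Casr*, also without overlap. For *Bsnd* (-0.65) and *Ptger3* (-0.85) the groups overlapped. The exact permutation *P* was 0.1 for the 4 ratios without overlap and 0.150 after adjustment over the 6 ratios, 0.5 for *Bsnd* (unchanged by adjustment) and 0.3 for *Ptger3* (adjusted 0.360). All 6 ratios contain the same *Slc12a1* values, which did not overlap between the diets by themselves, so they are not independent of that gene or of each other.

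**Figure D3:**
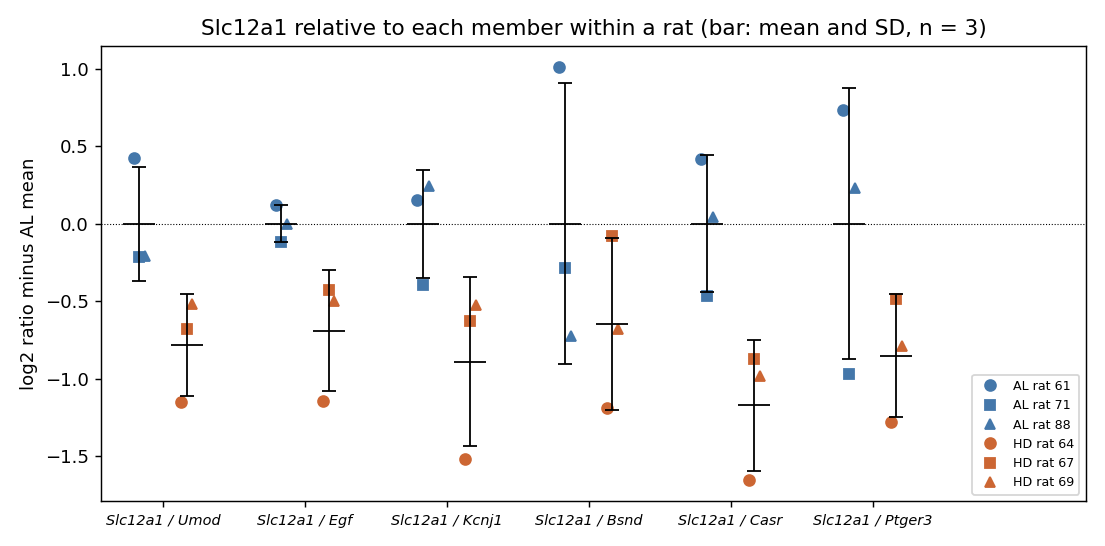
Within-rat log2 ratio of *Slc12a1* to each of the 6 genes, minus the mean of the AL rats (vertical axis), with AL rats in blue, HD rats in orange and the mean and SD of 3 rats as a bar. HD rats lie below all AL rats for *Umod*, *Egf*, *Kcnj1* and *Casr*, and overlap with them for *Bsnd* and *Ptger3*.

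A wider set of genes of the segment, its regulators and the partners of *Egf* was described by 7 lists with 57 genes. Not all of these genes are particular to the segment. Of the 57, 55 were listed and 54 tested (*Cldn14* was under the count minimum, and *Tmem207* and *Trpm6* were not analysed here). The log2 fold change was above 0 for 21 and below 0 for 33, with a median of -0.10 beside 0.01 for all tested genes. At an unadjusted *P* below 0.05 there were 10 (18.5%), 7 lower in HD, where 5.94% of all tested genes were, and 3 higher, where 4.66% were. Groups did not overlap for 9 genes (16.7%), close to the 14.3% of all tested genes. After adjustment edgeR called 0 of the 54 (smallest adjusted *P* 0.352), and DESeq2 called 2, *Pth1r* (adjusted *P* = 0.0393) and *Areg* (adjusted *P* = 0.000492), where it called 1.58% of all tested genes. *Areg* was listed as a partner of *Egf*, and which kidney cells its RNA came from was not tested. The count of 7 lower genes was 1 without HD rat 64, without HD rat 67 or without AL rat 88, and 12 without HD rat 69. The count of 3 higher genes was 5 without AL rat 61. The count over all genes was 640 without HD rat 64 and 605 without AL rat 88, against 1224 with all rats.

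Of the 15 salt transport partners, 8 had a log2 fold change above 0 and 7 below. Of the latter, 3 had an unadjusted *P* below 0.05 in edgeR (20.0% of this short list, beside 5.94% of all tested genes lower in HD). Besides *Slc12a1* these were *Slc9a3*, which encodes the sodium-proton exchanger of the apical membrane, and *Stk39*, a kinase that activates the cotransporter. *Slc9a3* was at 119, 116 and 139 CPM in AL rats 61, 71 and 88, and at 58.9, 72.2 and 106 CPM in HD rats 64, 67 and 69. All HD rats were below the AL rats, with a log2 fold change of -0.66 (SE 0.21, unadjusted *P* = 0.0168, adjusted *P* = 0.406, edgeR). For *Stk39* the log2 fold change was -0.35 (SE 0.14, adjusted *P* = 0.455, edgeR). The paper's discussion reports an increase of *Slc9a3* gene expression under the diet, opposite in direction to the estimate here. *Slc9a3* is also highly active in the proximal tubule. *Slc9a4*, a basolateral sodium-proton exchanger, had a log2 fold change of -0.29 (SE 0.30, adjusted *P* = 0.803, edgeR).

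The 4 tested genes of the paracellular route, through which calcium, magnesium and sodium pass between cells, all had estimates slightly below 0, and none had an unadjusted *P* below 0.05. *Cldn16* averaged 31.4 ± 8.41 CPM in AL and 27.9 ± 1.28 CPM in HD, and *Cldn19*, its partner in the tight junction, 44.5 ± 7.35 and 38.3 ± 15.6 CPM (SD, *n* = 3 each). *Cldn10*, which forms the sodium-selective pores, averaged 259 ± 41.9 and 229 ± 17.0 CPM. Their log2 fold changes were -0.17, -0.21 and -0.18, with SEs of 0.19, 0.28 and 0.15.

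Of the 12 regulators and receptors, which hold hormone and prostaglandin receptors and signalling proteins downstream of them, 5 had estimates above 0 and 7 below. *Avpr2*, the vasopressin receptor, averaged 27.0 ± 5.11 CPM in AL and 18.5 ± 3.08 CPM in HD, a log2 fold change of -0.54 (SE 0.19). *Adcy6*, an adenylate cyclase, averaged 178 ± 13.9 and 142 ± 16.7 CPM, a log2 fold change of -0.32 (SE 0.13). In both, every HD rat was below every AL rat, and the adjusted *P* values were 0.409 and 0.441 (edgeR). *Pth1r*, the parathyroid hormone receptor, was at 324, 325 and 286 CPM in AL rats 61, 71 and 88, and at 403, 408 and 479 CPM in HD rats 64, 67 and 69. Every HD rat was above every AL rat, with a log2 fold change of 0.47 (SE 0.12, adjusted *P* = 0.398, edgeR). *Pth1r* is also a gene of the proximal tubule, and *Avpr2* and *Adcy6* are active in the collecting duct.

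Of the 7 tested genes listed under protein traffic and processing, not all of which have a known part in it, *Hpn* encodes the protease that releases uromodulin. *Hpn* averaged 459 ± 81.3 CPM in AL and 538 ± 2.84 CPM in HD (SD, *n* = 3 each). Its log2 fold change was 0.23 (SE 0.15, adjusted *P* = 0.642, edgeR), beside -0.12 for *Umod* itself. *Mal*, a membrane protein of apical transport, had -0.43 (SE 0.17, adjusted *P* = 0.432, edgeR). Of the 6 transcription factors, *Irx2* had -0.44 (SE 0.17, adjusted *P* = 0.427, edgeR), with all HD rats below the AL rats, and the other 5 had unadjusted *P* values above 0.05.

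Among the 7 tested partners of *Egf*, its receptor gene *Egfr* averaged 7.02 ± 2.47 CPM in AL and 6.19 ± 1.04 CPM in HD, a log2 fold change of -0.19 (SE 0.29, adjusted *P* = 0.883, edgeR). *Areg* encodes amphiregulin, another ligand of that receptor. It was at 4.05, 2.22 and 3.04 CPM in AL rats 61, 71 and 88, and at 25.6, 8.14 and 11.6 CPM in HD rats 64, 67 and 69. All HD rats were above the AL rats, with rat 64 highest, and the log2 fold change was 2.28 (SE 0.47). This gene did not pass the threshold in edgeR (adjusted *P* = 0.352) and passed it in DESeq2, as given above. Of the 3 tested genes of the macula densa, the salt-sensing plaque at the end of the segment, 1 had an estimate above 0 and 2 below. The former was *Ptges*, a prostaglandin synthase, at 26.7 ± 3.89 CPM in AL and 39.0 ± 8.84 CPM in HD, with overlapping groups. Its log2 fold change was 0.55 (SE 0.20, adjusted *P* = 0.409, edgeR). *Nos1* had -0.29 (SE 0.59) and *Ptgs2* -2.02 (SE 1.09), both with an unadjusted *P* above 0.05 (edgeR).

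**Figure D4:**
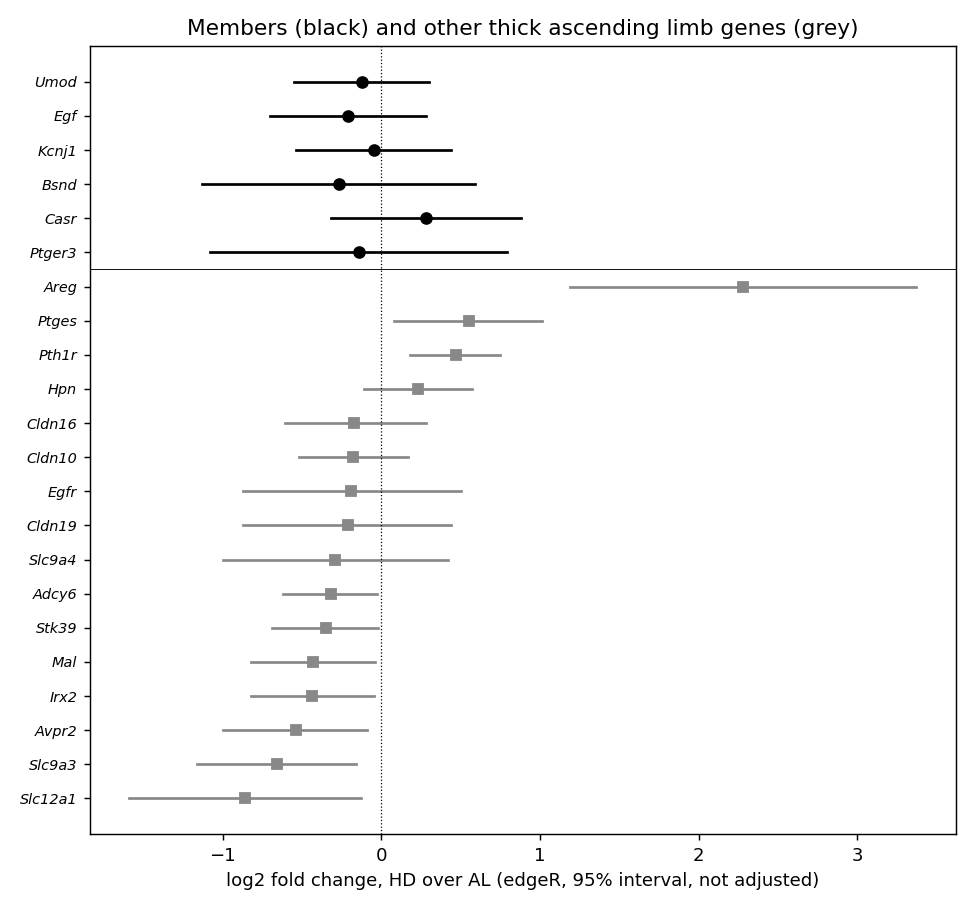
log2 fold change (HD over AL, horizontal axis) with unadjusted 95% intervals from edgeR for the 6 genes (black circles) and for named genes of the wider lists (grey squares), ordered by value within the second set. All 6 black intervals cross 0, and none of the genes shown passed the adjusted threshold in edgeR.

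Markers of several other kidney cells differed in range between the diets in the same libraries, and are given by list because the tissue mixes them with the thick ascending limb. The summed level of the proximal tubule markers (7 tested) was between 8118 and 9520 CPM in AL and between 10833 and 12414 CPM in HD. That of the distal and connecting tubule markers (4 tested, *Pvalb* under the count minimum) was between 90.8 and 214 CPM in AL and between 359 and 1241 CPM in HD, highest in rat 64. The podocyte markers (5 tested) summed to between 47.2 and 115 CPM in AL and between 126 and 277 CPM in HD. In each of these lists the sums of the groups did not overlap. Gene by gene, the groups did not overlap for 57.1% of the tested proximal, 100% of the distal and 60.0% of the podocyte markers. The share over all tested genes was 14.3%.

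The markers of the inner medulla and thin limb (5 tested) summed to between 893 and 1475 CPM in AL and between 479 and 886 CPM in HD. The sums did not overlap, by a narrow margin, but the groups overlapped for each of the 5 genes, all of which had a log2 fold change below 0 (median -1.42). Most of the sum was *Cryab*, at 578 to 854 CPM in AL and 410 to 801 CPM in HD. Its log2 fold change was -0.29 (SE 0.26). The lowest fold change, -2.63 for *Akr1b1* (SE 0.87), came with 390 CPM in AL rat 88 but 23.3 CPM in AL rat 61. The intercalated cell markers (5 tested) summed to between 827 and 981 CPM in AL and between 690 and 812 CPM in HD, although 4 of the 5 had a log2 fold change above 0 and 1 below (median 0.27). The sum was carried by *Slc4a1*, an anion exchanger named here after its values were seen, which was between 586 and 730 CPM in AL and between 375 and 527 CPM in HD. The sums of principal cell markers (6 tested, 1528 to 1669 and 1413 to 1789 CPM), endothelial markers (5 tested, 87.9 to 235 and 76.7 to 248 CPM) and leukocyte markers (5 tested, 226 to 375 and 137 to 294 CPM) overlapped. Gene by gene, the groups did not overlap for 66.7% of the principal cell, 0.0% of the endothelial and 20.0% of the leukocyte markers. All 5 leukocyte markers had a log2 fold change below 0 (median -1.19). At an unadjusted *P* below 0.05, where 10.6% of all tested genes stood, edgeR marked 3 proximal, 4 distal and 3 podocyte markers, all higher in HD, and 3 medullary and 2 leukocyte markers, all lower. It marked 2 principal cell markers higher and 2 lower, 1 intercalated cell marker higher and 1 lower, and 0 endothelial markers, and 0 of all these passed after adjustment. DESeq2 called 2 proximal, 3 distal, 3 podocyte, 1 medullary, 2 principal cell, 1 intercalated cell, 1 leukocyte and 0 endothelial markers, beside its 1.58% of all tested genes. *Pvalb* and the proximal marker *Slc5a12* had fewer than 30 counts in every rat. What share of cortex and medulla each piece of tissue held is not given, and the part of these markers in the values of the thick ascending limb genes was not tested.

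**Figure D5:**
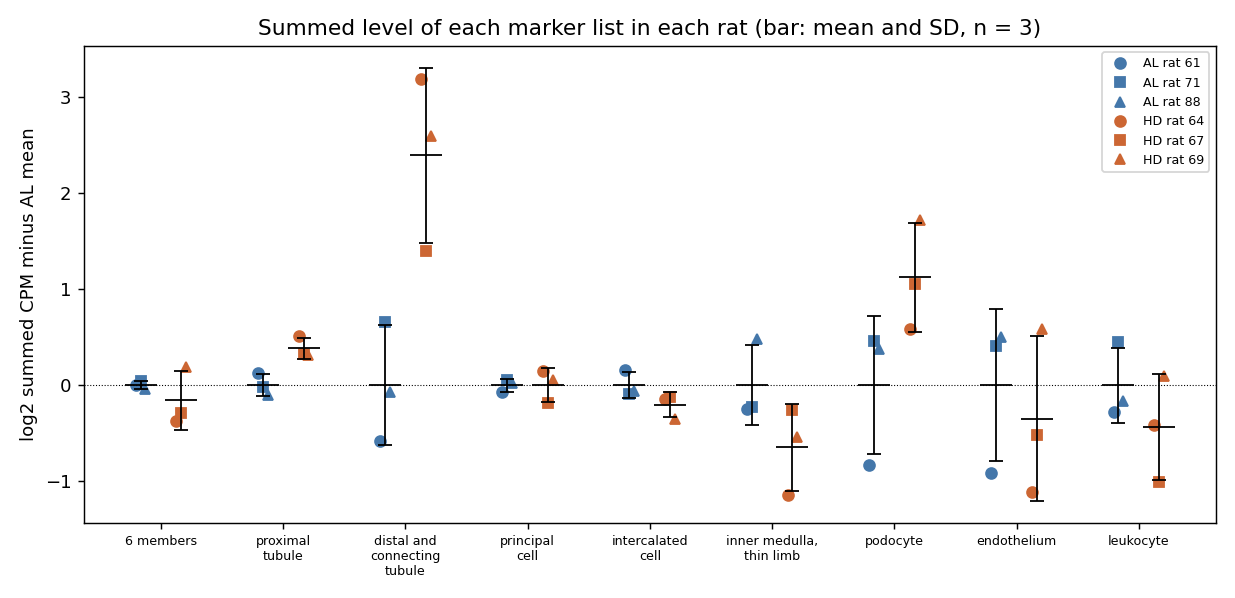
log2 of the summed CPM of each marker list in each rat, minus the mean of the AL rats (vertical axis), with AL rats in blue, HD rats in orange and the mean and SD of 3 rats as a bar. The 6 thick ascending limb genes (left) overlap between the diets, while the sums of the proximal, distal and podocyte lists lie higher in every HD rat. Those of the inner medullary list, mostly *Cryab*, and of the intercalated cell list lie lower in every HD rat. The intercalated sum is lower through *Slc4a1*, although 4 of the 5 intercalated cell markers had log2 fold changes above 0.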

How the data were processed

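Kidney RNA of 6 rats, 3 per diet, was sequenced as poly(A)-selected libraries on an Illumina sequencer with single reads, and each rat is its own library. The authors quantified transcripts with RSEM 1.1.15 (submitters' processing notes) on the UCSC gene definitions for build rn5. For each transcript they deposited an estimated count, without normalization, its posterior mean, and TPM scaled to transcript length and depth by the authors. The kit does not mark strand, so reads of overlapping genes on opposite strands cannot be separated. The authors' FPKM values were not used here.

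Counts were summed per gene and rounded, and genes with at least 30 counts in at least 1 rat were tested with edgeR 4.0.16 (quasi-likelihood, TMM, R 4.3.3), adjusted by Benjamini-Hochberg with a threshold of 0.05. edgeR estimated a common biological coefficient of variation of 0.242. The script was tested on simulated data. Unadjusted *P* values below 0.05 were used for counts and to name genes, and were not taken as calls. CPM were TMM-normalized. Exact two-sided permutation tests used log2(CPM + 0.5). DESeq2 1.42.0, the study's tool, and limma 3.58.1 on log2(TPM + 1) were alternatives. Figures and tables used Python 3.11.15, pandas 2.3.3, numpy 2.4.6, scipy 1.17.1 and matplotlib 3.10.9. Every pair of rats of a group differed by more than sampling noise (chi-square per degree of freedom 24.1 to 81.2).

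The 6 genes, the gene lists and the tests were chosen with earlier results of these data known. Named were the 6 genes, the 2 nearest genes of each, genes of the 7 segment lists with an unadjusted *P* below 0.05, and *Slc12a1*, *Cldn10*, *Cldn16*, *Cldn19*, *Slc9a3*, *Slc9a4*, *Hpn*, *Egfr* and *Trpm6* in any case. Some genes that this rule covers are not reported. Markers of other cells were given by list, apart from *Slc4a1*, *Cryab*, *Akr1b1* and those under the count minimum. *Slc4a1*, *Cryab*, *Akr1b1*, *Nos1* and *Ptgs2* were named after their values were seen.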

Additional observations from a re-analysis of the deposited data

How the results depend on the processing

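The 6 genes gave 0 calls under each of the 8 other settings and each omission of a rat. Their 48 log2 fold changes under the 8 settings (DESeq2, robust edgeR, RLE normalization, library size alone, no count minimum, at least 10 counts in every rat, posterior mean counts, limma on log2 TPM) kept their direction, with a smallest adjusted *P* of 0.708. Quantifying transcripts singly changes nothing, as each gene has 1. The median over all tested genes was 0.00673 with TMM, -0.074 with library size alone and -0.0586 with limma on TPM.

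Leaving out single rats gave log2 fold changes from -0.30 to -0.01 for *Umod*, -0.43 to -0.07 for *Egf*, -0.23 to 0.07 for *Kcnj1*, -0.64 to 0.03 for *Bsnd*, 0.03 to 0.46 for *Casr* and -0.47 to 0.40 for *Ptger3*. Of these 36 values, 6 changed sign: *Kcnj1* without rat 61 (0.05), rat 71 (0.06) or rat 67 (0.07), *Bsnd* without rat 88 (0.03) and *Ptger3* without rat 71 (0.40) or rat 67 (0.03). The cause was not tested.

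Over all genes, edgeR called 0, 2 with no count minimum and 0 to 4 without single rats, and DESeq2 called 182. In the segment lists DESeq2 called 2 and edgeR 0, also 0 to 0 without single rats. The within-rat difference of *Slc12a1* to *Umod*, added after seeing the data, was between -0.91 and -0.56 without single rats, and that of *Casr* to *Egf* between 0.33 and 0.65. Where a rat was left out, a group of 2 remained. No paired analysis was possible because the rats of the 2 diets carry different numbers. With 3 rats per diet the intervals of *Bsnd* and *Ptger3* are wide, and counting error at the lowest count was 9.40% for *Casr* and 8.45% for *Ptger3*.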

Other observations

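*Slc12a1* was listed with 2 main transcripts, which share 26 of their 27 exons and differ in an exon of 96 bases (rn5 chr3:123959114-123959209 in NM_001270617, chr3:123959671-123959766 in NM_001270618). The transcript NM_001270617 took 39.3%, 29.6% and 32.1% of the gene's estimated counts in AL rats 61, 71 and 88, and 85.6%, 48.7% and 56.2% in HD rats 64, 67 and 69. Every HD rat was above every AL rat, with rat 64 highest, and the means were 33.7% ± 5.04 and 63.5% ± 19.5 (SD, *n* = 3 each, exact permutation *P* = 0.1, the smallest possible). With posterior mean counts the means were 30.6% ± 4.11 and 61.2% ± 19.0. For the most abundant transcript of the 599 tested genes with several transcripts and counts in all rats, the shares of the groups did not overlap in 6.68%, and in 12.1% of 603 genes with posterior mean counts. NM_001270617 was picked by name and not by abundance, so this background is not the same measure. The share of NM_001270618 was 60.7%, 70.4% and 67.5% in AL rats 61, 71 and 88, and 14.4%, 51.3% and 43.7% in HD rats 64, 67 and 69, also without overlap. RSEM can divide reads between these transcripts only by those that touch the exon of 96 bases, so the shares carry more error than the gene's total, and this gene was chosen for the comparison after its values were seen. From its sequencing, the paper reported *Slc12a1* as downregulated in HD, among its differentially expressed transporters. In the tests here the gene did not pass the adjusted threshold. By qPCR, the paper found that the diet did not change the RNA of any NKCC2 isoform, while its immunohistochemistry showed more NKCC2 protein in HD. How those isoforms correspond to the 2 transcripts was not examined here.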
